A study of Canis lupus familiaris with 186 samples.

Results

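The 47 vessel-rich and 47 vessel-poor tumors were the highest and the lowest 47 of 186 canine osteosarcomas ranked by the RNA level of 3 endothelial genes. The DOG2 dataset holds mRNA sequencing of primary bone tumors from pet dogs of the trials COTC021 and COTC022, with 93 dogs from each trial in the table used here. Tumors came from the limb skeleton, were sampled before any treatment, and belonged to dogs with no macroscopic metastasis at enrollment. After amputation the dogs of both groups received carboplatin, with or without rapamycin, and the assigned arm was not used here. Age, sex and breed were not used here.

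The groups were selected on measured values. The count of PECAM1, CDH5 and VWF in each library was divided by the library total and multiplied by 1000000, which gives CPM, the counts of a gene per 1000000 counts of its library. Each was transformed as log2(CPM + 1) and converted to a z-score over the 186 dogs, and the mean of the 3 z-scores is the vessel score. The 92 dogs between the groups are called the middle dogs. The vessel-rich group held 24 dogs of COTC021 and 23 of COTC022, and the vessel-poor group 26 and 21.

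Blood vessels are lined by endothelial cells, which seal their contacts with the adhesion molecules PECAM1 and VE-cadherin, the product of CDH5, and store the clotting protein von Willebrand factor, the product of VWF. New vessels sprout when VEGF ligands bind VEGF receptors on endothelial cells, Notch signalling sorts tip cells from stalk cells, and angiopoietins acting on the receptor TIE2 (TEK) govern how vessels mature. Mature capillaries lie on a basement membrane of type IV collagen and laminins and are wrapped by pericytes. Osteosarcoma is a malignant tumor of bone-forming cells that often spreads through the blood to the lungs.

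PECAM1 (chr9:14705590-14758833) lay at 99.0 CPM in the median vessel-poor dog, with a range from 33.0 to 194 CPM. In the vessel-rich dogs its median was 521 CPM, from 262 to 1271 CPM, and in the middle dogs 229 CPM. CDH5 (chr5:83417122-83449500) had medians of 25.3 CPM (range 4.17 to 81.5) in vessel-poor and 118 CPM (range 60.2 to 278) in vessel-rich dogs. VWF (chr27:7119622-7257688) had medians of 32.9 CPM (range 5.24 to 167) and 218 CPM (range 61.0 to 630). PECAM1 did not overlap between the groups, while 43 of 47 vessel-rich dogs lay above every vessel-poor dog for CDH5 and 29 of 47 for VWF. These values chose the dogs and were not tested.

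The 3 genes did not rank the dogs alike. Over the 186 libraries, Pearson's r of the z-scores was 0.923 for PECAM1 with CDH5, 0.691 for PECAM1 with VWF and 0.521 for CDH5 with VWF, as a description of values that share a library and its depth. Of the vessel-rich dogs, 27 were among the 47 highest dogs for each of the 3 genes, 14 for 2 of them and 6 for 1. Among vessel-poor dogs, 20 were among the 47 lowest for each gene, 22 for 2 and 5 for 1. The lowest vessel-rich score was 0.536 and the highest middle score 0.529, and at the other edge the highest vessel-poor score was -0.549 and the lowest middle score -0.507, so the edges cut through a continuous range.

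**Figure D1:**
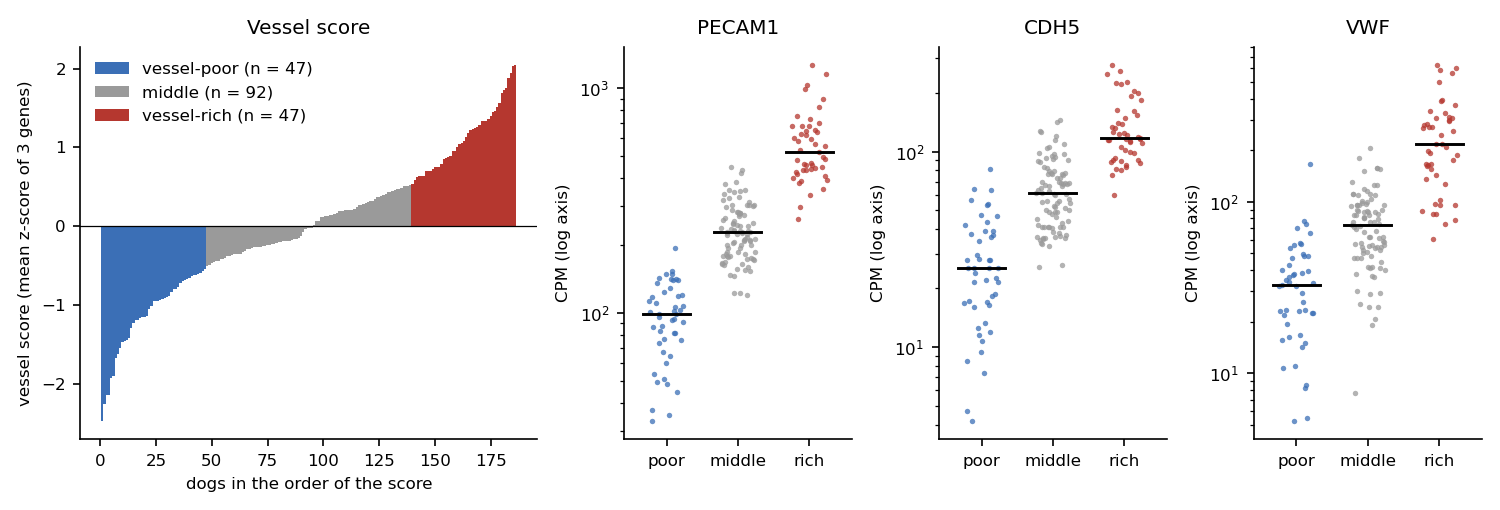
Left, the vessel score (mean z-score of 3 genes, no unit) of 186 dogs in rising order. Right, CPM of PECAM1, CDH5 and VWF on log axes in the 47 vessel-poor, 92 middle and 47 vessel-rich dogs, with 1 point per dog and the median as a black line. PECAM1 separates vessel-poor dogs (up to 194 CPM) from vessel-rich dogs (from 262 CPM), while VWF values of the groups overlap.

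One vessel-poor dog, singled out after its values were seen, had discordant markers. Its VWF level was 8.23 CPM, but its PECAM1 level of 194 CPM and CDH5 level of 81.5 CPM were the highest of the vessel-poor group, and its score was -0.678. This dog also had the highest vessel-poor level of 23 of 132 tested genes of the 10 vessel lists described below, KDR, TEK and CLDN5 among them. With VWF left out of the score, 39 of 47 vessel-rich and 39 of 47 vessel-poor dogs stayed in their groups.

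Depth did not follow the groups. Total counts ranged from 6587634 to 20851591 in vessel-rich and from 7193810 to 21558536 in vessel-poor libraries, and a median of 13612 and 13837 genes had 10 or more counts. A second style of column name in the deposited table marks 50 libraries, called the deeper libraries here, 13 of them vessel-rich and 11 vessel-poor, with a median total of 19440456 against 9851682 in the other 136. No 2 of the 186 libraries held identical values. Nothing in the labels ties libraries to each other, and each is 1 tumor of 1 dog.

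Of 13419 genes tested, 2260 (16.8%) were higher and 2092 (15.6%) lower in vessel-rich tumors at an adjusted p under 0.05 (limma-voom with trial as a term and Benjamini-Hochberg adjustment, the 3 selecting genes left out). Counts of genes called in the lists below are to be read against these shares. A change above 3-fold was found for 282 of the higher genes, 2.1% of those tested, and for 66 of the lower genes, 0.492%. The lower genes past 3-fold numbered 24 with the GS-1 score as a further term, 28 with GS-1 and muscle terms, 14 between the highest and lowest 62 dogs and 7 among the GS-1-low dogs described below. Higher genes made up 51.9% of the calls, but 39.8% in edgeR's quasi-likelihood test and 39.5% in DESeq2. The edgeR test called 1852 genes (13.8%) higher and 2805 (20.9%) lower, and DESeq2 1953 (14.6%) and 2997 (22.3%). No gene other than PECAM1 separated the groups without overlap, so the counts of dogs beyond the other group's range below are to be read against 0 genes with full separation.

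The endothelial label of the vessel-rich group held across its other markers. Of 30 genes of endothelial identity and junctions, 29 passed the low-count filter, 27 were higher in vessel-rich tumors, none was lower, and the median log2 fold change was 1.81, against -0.02 over all genes tested. These genes mark the same cells as the selecting genes, so their rise is a check of the label. RNA of a whole tumor piece cannot tell more endothelial cells from more endothelial RNA per cell. The summed level of the list had a median of 848 CPM (range 348 to 2108) in vessel-poor and 2360 CPM (range 1224 to 4729) in vessel-rich dogs, with 1343 CPM in the middle dogs.

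ECSCR (chr2:33889703-33898041), an endothelial surface protein of migrating cells, lay at 7.40 CPM (range 1.23 to 18.0) in vessel-poor dogs and 34.5 CPM (range 13.3 to 87.9) in vessel-rich dogs. Its log2 fold change was 2.32 ± 0.15 (SE, n = 47 and 47), a 5.01-fold difference, and 44 vessel-rich dogs exceeded every vessel-poor dog (limma adjusted p = 1.17e-23). NOS3 (chr16:15781028-15799144), the endothelial nitric oxide synthase that relaxes vessel walls, rose from a median of 6.94 CPM (range 0.657 to 17.9) to 29.9 CPM (range 13.2 to 109), with 42 vessel-rich dogs above the vessel-poor range. ESAM, an adhesion molecule of endothelial tight junctions, rose from 16.0 CPM (range 3.33 to 34.9) to 57.3 CPM (range 26.1 to 130). CLDN5, the claudin of endothelial tight junctions, rose 5.30-fold, from 2.42 CPM (range 0 to 13.4) to 10.1 CPM (range 3.18 to 30.9). For these genes each of the 47 vessel-rich dogs lay above the vessel-poor median.

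PLVAP, which forms the diaphragms of leaky capillaries, was 3.04-fold higher, and CD34, a surface sialomucin of capillary endothelium, 3.52-fold higher. CD34 reached 646 CPM in 1 vessel-poor dog, so a single vessel-rich dog exceeded that group's range. MMRN1, a multimerin of endothelial cells and platelets, had the largest change of the list at 12.6-fold. The smallest called change was that of the adhesion molecule ICAM2, 1.71-fold. The genes of the list that did not pass the test were ESM1 and AQP1. AQP1, a water channel, had medians of 57.2 and 77.6 CPM.

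**Figure D2:**
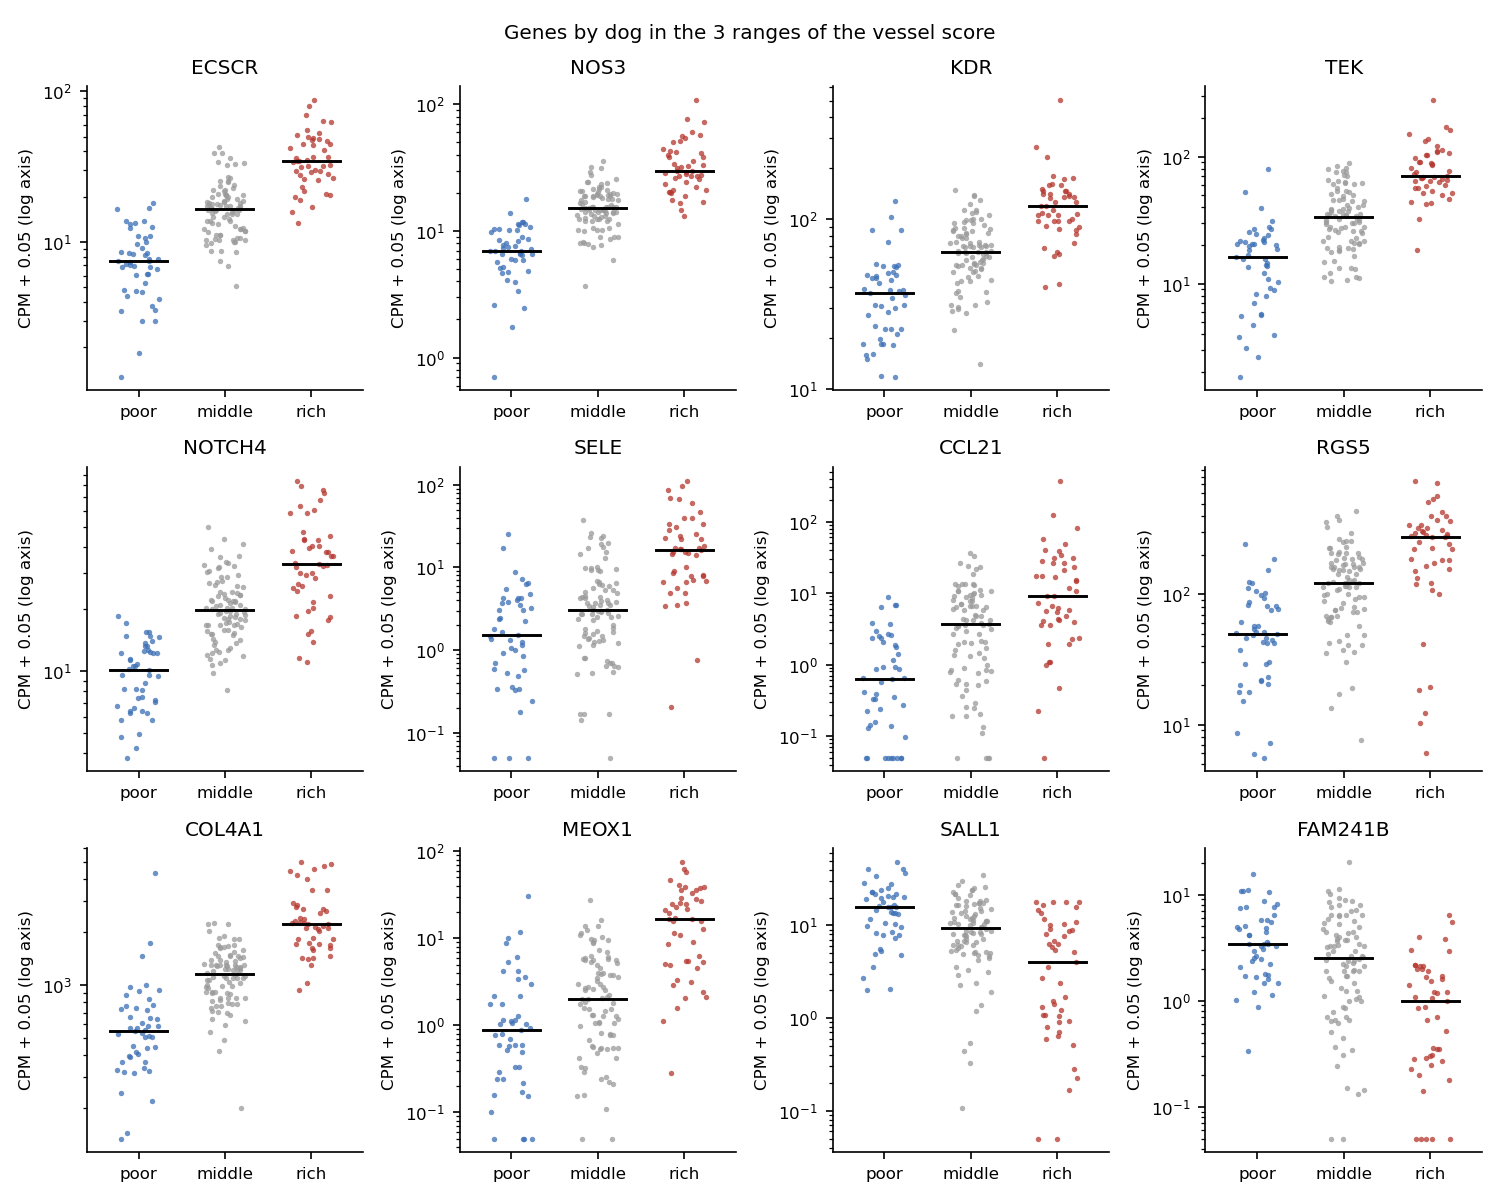
CPM + 0.05 on log axes of 12 genes in the 47 vessel-poor, 92 middle and 47 vessel-rich dogs, with 1 point per dog and the median as a black line. ECSCR, NOS3 and NOTCH4 leave little overlap between the outer groups, CCL21, RGS5 and MEOX1 spread widely within each, and SALL1 and FAM241B run the other way.

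Transcription factors that set endothelial fate rose with the structural genes. Of 19 tested, 15 were higher and 1 was lower, and the median log2 fold change was 1.09. SOX7, a SOXF factor of early endothelium, lay at 4.39 CPM (range 0.432 to 12.6) in vessel-poor and 16.0 CPM (range 5.83 to 46.6) in vessel-rich dogs and was 4.91-fold higher. SOX17 and SOX18, the other SOXF members, had log2 fold changes of 1.89 ± 0.23 and 1.88 ± 0.26 (SE). ERG, an ETS factor that maintains junctions, was 2.90-fold higher, and MECOM, a zinc finger factor of arterial endothelium and blood stem cells, 3.78-fold higher. NR2F2, which specifies veins, was 2.54-fold higher, from 11.1 CPM (range 3.77 to 48.8) to 29.3 CPM (range 9.62 to 107). The lower gene was FOXC1, a forkhead factor also of bone and stromal cells, with medians of 49.0 and 34.5 CPM, and it was not called with trial, GS-1 and muscle terms (adjusted p = 0.252, terms described below).

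Within the VEGF family, 4 of 5 receptors and coreceptors and 1 of 5 ligands were higher, and none was lower in limma. The coreceptor NRP2, with a log2 fold change of -0.34 in limma, was called lower by both edgeR and DESeq2. KDR (chr13:48206381-48248022), the main signalling receptor VEGFR2, lay at 36.6 CPM (range 11.8 to 128) in vessel-poor and 119 CPM (range 39.6 to 507) in vessel-rich dogs. It was 3.43-fold higher (log2 fold change 1.78 ± 0.14, SE, limma adjusted p = 4.58e-20), and 20 vessel-rich dogs exceeded every vessel-poor dog. FLT1, the decoy receptor VEGFR1, was 2.67-fold higher, FLT4, the VEGFR3 of lymphatic and sprouting endothelium, 1.79-fold, and the coreceptor NRP1 1.96-fold. VEGFC, the ligand of FLT4, was 2.86-fold higher, from 12.1 CPM (range 3.12 to 58.9) to 34.3 CPM (range 11.3 to 106). VEGFA, the hypoxia-induced ligand of KDR, had a median of 56.6 CPM (range 13.3 to 348) in vessel-poor and 51.4 CPM (range 5.69 to 540) in vessel-rich dogs. Its log2 fold change of -0.24 ± 0.22 (SE) did not pass the test (adjusted p = 0.415), and only 20 of 47 vessel-rich dogs lay above the vessel-poor median.

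Of 5 angiopoietin and Tie genes tested, 3 were higher and none lower. TEK (chr11:45518478-45616970), the receptor TIE2, lay at 16.1 CPM (range 1.81 to 80.4) in vessel-poor and 70.2 CPM (range 18.3 to 280) in vessel-rich dogs, a 5.63-fold difference. TIE1, its partner receptor, was 3.86-fold higher. ANGPT2, made by endothelial cells and loosening vessels, was 2.75-fold higher, from 5.85 CPM (range 1.03 to 46.0) to 15.8 CPM (range 4.54 to 64.0). ANGPT1, the stabilizing ligand, had medians of 6.49 CPM (range 0.660 to 102) and 6.23 CPM (range 0.823 to 80.5) and did not pass the test (log2 fold change 0.31 ± 0.28, SE).

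Of 17 Notch, arterial and tip cell genes tested, 13 were higher and none lower in limma, and the median log2 fold change was 1.23. UNC5B, a netrin receptor, had -0.55 in limma and was called lower by both edgeR and DESeq2. NOTCH4, the endothelial Notch receptor, separated the groups most within this list: 40 vessel-rich dogs exceeded every vessel-poor dog, with medians of 10.1 CPM (range 3.75 to 18.5) and 33.1 CPM (range 11.0 to 84.2). DLL4, the Notch ligand of tip cells, was 3.19-fold higher, and 28 vessel-rich dogs lay above the vessel-poor range. SEMA3G, an arterial semaphorin, was 7.62-fold higher, and APLNR, the apelin receptor of veins and sprouts, 5.56-fold. NOTCH1, the more widely expressed receptor, had a log2 fold change of 1.07, the ligands JAG1 and JAG2 of 0.47 and 1.25. None of the 3 HES and HEY genes of the list, transcriptional targets of Notch, passed the test.

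Venous and adhesion genes were led by the selectins, which slow leukocytes on inflamed venules. SELE lay at 1.48 CPM (range 0 to 25.1) in vessel-poor and 16.2 CPM (range 0.154 to 111) in vessel-rich dogs, a 10.3-fold difference. SELP, stored with von Willebrand factor in endothelial granules, was 6.46-fold higher, and IL33, an alarmin kept in endothelial nuclei, 6.25-fold. Of 9 genes of this list tested, 6 were higher and none lower in limma, VCAM1 and PODXL among them with log2 fold changes of 1.31 and 1.91. In edgeR and in DESeq2, 5 were higher and LEPR, the leptin receptor, was lower (log2 fold change -1.23 in edgeR and -0.66 in limma). Within COTC021, and with trial, GS-1 and muscle terms, 4 were higher. ACKR1, the chemokine receptor of postcapillary venules, did not pass the low-count filter and was not tested. Its median was 0.0952 CPM (range 0 to 5.97) in vessel-poor and 4.25 CPM (range 0 to 109) in vessel-rich dogs.

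Of 6 lymphatic genes tested, 4 were higher and none lower in limma, at a median log2 fold change of 1.52. In edgeR and in DESeq2 3 were higher, at medians of 0.68 and 0.73. Within each trial 3 were called higher, within the deeper libraries 1 and within the others 3. The summed level of the list had medians of 906 CPM in vessel-poor and 1092 CPM in vessel-rich dogs. CCL21 (chr11:51611593-51612281), the chemokine by which lymphatic endothelium draws in dendritic cells, had a median of 0.571 CPM (range 0 to 8.85) in vessel-poor and 9.02 CPM (range 0 to 371) in vessel-rich dogs. Its 17.9-fold difference had a log2 SE of 0.70, and 24 vessel-rich dogs lay above the vessel-poor range. LYVE1, a hyaluronan receptor that macrophages also carry, was 3.01-fold higher. PROX1, the factor that defines lymphatic identity, did not pass the low-count filter, with medians of 0.464 CPM (range 0 to 8.08) and 1.42 CPM (range 0 to 57.9).

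Cells and matrix around the endothelium followed. Of 17 pericyte and smooth muscle genes tested, 13 were higher and none lower, and the median log2 fold change was 1.58. RGS5 (chr38:20385842-20433074), a pericyte regulator of G protein signalling, lay at 49.4 CPM (range 5.52 to 245) in vessel-poor and 275 CPM (range 5.96 to 747) in vessel-rich dogs. It was 4.29-fold higher, yet 6 vessel-rich dogs lay at or below the vessel-poor median. KCNJ8 and ABCC9, the pore and regulatory subunits of the pericyte potassium channel, were 5.26-fold and 4.11-fold higher. PDGFB, the endothelial signal that recruits pericytes, was 2.46-fold higher, and its receptor PDGFRB 1.76-fold. The contractile genes MYH11 and ACTA2 were 5.18-fold and 2.81-fold higher. NOTCH3, the Notch receptor of mural cells, had medians of 101 and 122 CPM and did not pass the test.

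The vascular basement membrane list had the highest share of called genes among the non-endothelial lists, with 11 of 12 higher. COL4A1 (chr22:58660825-58801735), the main chain of type IV collagen, had a median of 553 CPM (range 135 to 4359) in vessel-poor and 2221 CPM (range 944 to 5038) in vessel-rich dogs. It was 4.24-fold higher (log2 fold change 2.08 ± 0.15, SE, limma adjusted p = 2.23e-21). COL4A2, its partner chain, and COL18A1, the source of endostatin, were both 3.66-fold higher. LAMB2 was the 1 gene of the list that did not pass the test. Of 8 angiogenesis inhibitors tested, 4 were higher, SEMA3F by 3.20-fold and THBS2 by 4.13-fold among them, and none was lower, against 16.8% of all genes called higher. Within each trial and within the deeper libraries 2 were called, and 4 within the others. Among the GS-1-low dogs described below 2 were called. In edgeR and DESeq2 4 were higher, but 3 of the 8 had a negative change, at list medians of 0.46 and 0.45.

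**Figure D3:**
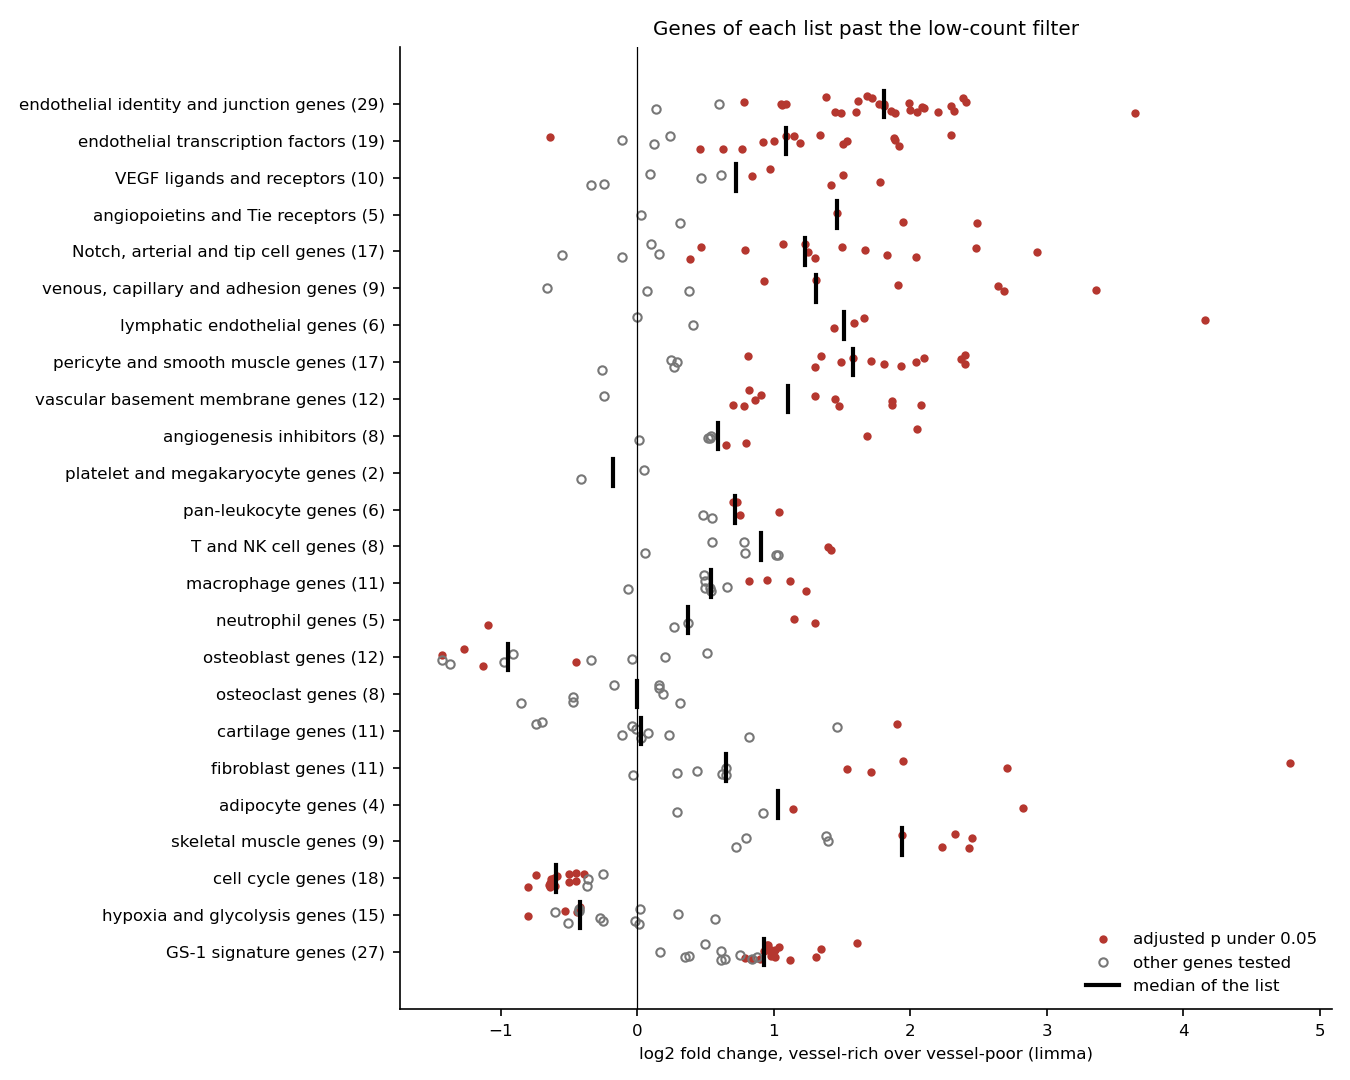
Log2 fold change (vessel-rich over vessel-poor, limma) of the tested genes of each list, 1 point per gene, filled where the adjusted p was under 0.05, with the list median as a black bar and the number tested in brackets. Lists with fewer than 2 genes tested are left out. Lists of vessel cells and matrix lie to the right of 0 (medians from 0.59 to 1.81). So do skeletal muscle (1.94), adipocyte (1.03), GS-1 (0.93), T and NK cell (0.90), pan-leukocyte (0.71), fibroblast (0.65), macrophage (0.54) and neutrophil (0.37) lists. Cell cycle, hypoxia and osteoblast lists lie to the left.

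Red cell and platelet genes were low or not called. None of the 8 erythroid genes with a row passed the filter, and their summed level had a median of 0.817 CPM (range 0.129 to 63.3) in vessel-poor and 0.556 CPM (range 0 to 4.75) in vessel-rich dogs. HBB and PF4 had no row in the table. Of 11 platelet and megakaryocyte genes, 7 had a row and 2 integrin genes passed the filter. Neither was called, and the summed level had medians of 71.3 CPM (range 12.8 to 242) and 64.2 CPM (range 7.85 to 281).

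The genes with the largest changes came only in part from the vessel lists. By the rule used here, the 15 largest increases included those of MFAP5, PRG4, MFAP4, CCL21, SLC14A1, MEOX1, MMRN1, ZPLD1, PRND, BTNL9, SELE, ADAMTS16, PDLIM3 and ABI3BP. MFAP5 (chr27:9060205-9074357), a microfibril protein of elastic tissue, had a median of 0.367 CPM (range 0 to 1677) in vessel-poor and 21.6 CPM (range 0 to 1224) in vessel-rich dogs. Its log2 fold change was 4.78 with an SE of 1.19, and no vessel-rich dog exceeded the vessel-poor range. MFAP4, another microfibril protein, had medians of 0.233 CPM (range 0 to 147) and 10.1 CPM (range 0 to 651). PRG4, the lubricin of joint surfaces, spanned 0 to 995 CPM in vessel-poor and 0 to 3960 CPM in vessel-rich dogs. For these 3 genes a few very high dogs lay in either group and the SE was above 1.

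MEOX1 (chr9:19496073-19517460), a homeobox factor of vessel walls and somites, changed more evenly. It lay at 0.840 CPM (range 0 to 31.0) in vessel-poor and 16.4 CPM (range 0.231 to 75.6) in vessel-rich dogs, and 46 of 47 vessel-rich dogs were above the vessel-poor median. SLC14A1, the urea transporter of red cells and descending vasa recta, was 16.0-fold higher, and each of the 47 vessel-rich dogs was above the vessel-poor median of 0.287 CPM. PRND, which encodes the prion-like protein Doppel of tumor endothelium, was 11.8-fold higher, and BTNL9, a butyrophilin of capillary endothelium, 10.3-fold. ADAMTS16, a secreted protease, was 9.82-fold higher in limma, but edgeR's quasi-likelihood test did not call it (adjusted p = 0.201).

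The 15 largest decreases included those of FADS6, HOXB13, SPAG6, HOXC13, NDNF, SALL1, IGF2BP1, FAM241B, EPHA5, ZIC5, NXPH4, ADSS1 and SLC6A15. SALL1, a zinc finger factor of limb and kidney, lay at 15.7 CPM (range 1.97 to 48.5) in vessel-poor and 4.00 CPM (range 0 to 18.0) in vessel-rich dogs, a 4.66-fold difference, and 41 of 47 vessel-rich dogs were below the vessel-poor median. NDNF, a secreted neuron-derived factor, fell from 346 CPM (range 9.80 to 1664) to 86.9 CPM (range 0 to 655). FAM241B (chr4:21414920-21417934) was 4.55-fold higher in vessel-poor dogs, and 4 of 47 vessel-rich dogs lay above the vessel-poor median of 3.35 CPM. HOXB13 and IGF2BP1 were not called by edgeR's quasi-likelihood test (adjusted p = 0.0687 and 0.0732).

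GS-1 signature genes were higher in part, and most genes of the immune cell lists did not pass the test in limma. GS-1 is the gene signature by which the study divided its tumors, and many of its genes are expressed by leukocytes. None of the 3 selecting genes is in it. Of 27 GS-1 genes tested, 17 were higher and none lower, and the median log2 fold change was 0.93. Within trials and libraries fewer passed, 1 in COTC021 and 11 in COTC022, at medians of 0.64 and 1.25, and none in the deeper and 4 in the other libraries, at medians of 1.15 and 0.76. CCR2, the chemokine receptor of inflammatory monocytes, lay at 2.81 CPM (range 0.0812 to 39.9) in vessel-poor and 7.93 CPM (range 0.700 to 116) in vessel-rich dogs and was 3.04-fold higher. DLA-DQA1, a class II antigen-presenting chain, was 2.47-fold higher, and the macrophage receptors MRC1 and CD163 were 2.36-fold and 2.17-fold higher. Of 6 pan-leukocyte genes 4 were higher, of 8 T and NK cell genes tested 2, of 11 macrophage genes 4, and none of these was lower, to be read against the 16.8% of all genes called higher. In edgeR 5, 4 and 5 genes of these 3 lists were higher, against 13.8% of all genes. In DESeq2 4, 1 and 5 were higher, against 14.6%. No pan-leukocyte gene was called in COTC021 or in either set of libraries, and 1 was in COTC022, with list medians from 0.52 to 0.91. CSF1R, the growth factor receptor of macrophages, had medians of 209 and 252 CPM and did not pass the test. Of 5 neutrophil genes tested, CSF3R and S100A9 were higher and MPO lower in limma. In edgeR none was higher and 1 lower, and in DESeq2 none was higher and 3 were lower. The median log2 fold change of these 5 genes was 0.37 in limma, -0.01 in edgeR and -0.86 in DESeq2. Neither the 1 B-lineage gene nor the 1 mast cell gene tested was called.

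The GS-1 score, the mean z-score of the 27 genes after quantile normalization, was 0.369 ± 0.973 (SD, n = 47) in vessel-rich and -0.0972 ± 0.792 (SD, n = 47) in vessel-poor dogs. The middle dogs had the lowest mean, -0.139 ± 0.681 (SD, n = 92), so the score did not follow the order of the 3 groups. The difference of 0.466 between the outer groups had a two-sided permutation p of 0.0115, and it was smaller than either SD. K-means with 2 clusters on these values, rebuilt from the counts, placed 24 of 47 vessel-rich dogs (51.1%, 95% Wilson interval 37.2 to 64.7) in the GS-1-high cluster. Of the vessel-poor dogs, 15 of 47 (31.9%, interval 20.4 to 46.2) and, of the middle dogs, 23 of 92 (25.0%, interval 17.3 to 34.7) were in it. The difference between the shares of the outer groups did not pass Fisher's exact test (two-sided p = 0.0934). With VWF left out of the score the Fisher p was 0.0341, with CDH5 left out 0.144 and with PECAM1 left out 0.532. Within COTC021 the difference in score was 0.260 (permutation p = 0.312) and within COTC022 0.717 (p = 0.00596), and the difference between the trials had a permutation p of 0.218. Within the deeper libraries it was 0.859 (p = 0.0375) and within the others 0.337 (p = 0.0995).

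Because the GS-1 score differed between the outer groups, the contrast was repeated in the 23 vessel-rich and 32 vessel-poor dogs of the GS-1-low cluster. There 1029 genes (7.67%) were higher and 260 (1.94%) lower. The 27 endothelial genes called in all dogs were also called here, and the median log2 fold change of the list was 1.99. None of the 6 pan-leukocyte, 8 T and NK cell or 11 macrophage genes was called, with medians of 0.46, 0.56 and 0.44 against 0.71, 0.90 and 0.54 in all dogs, and each of these genes had a positive log2 fold change. Of 27 GS-1 genes 4 were called. These dogs were chosen by the GS-1 genes and are fewer. TEK had a log2 fold change of 2.72 in these dogs and KDR of 2.10.

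Skeletal muscle RNA was also higher in part. The summed level of 9 muscle genes had a median of 33.9 CPM (range 2.27 to 26536) in vessel-poor and 87.2 CPM (range 2.05 to 19429) in vessel-rich dogs. In limma 5 of the 9 were called higher, against 16.8% of all genes, in edgeR 1, against 13.8%, and in DESeq2 9, against 14.6%. Within COTC021 and within the deeper libraries none was called, within COTC022 1 and within the other libraries 2. The median log2 fold change of the list was 1.94 in limma, 1.76 in edgeR and 3.74 in DESeq2. Among the 47 dogs with the highest muscle score were 18 vessel-rich and 7 vessel-poor dogs. TNNT3, fast troponin T, lay at 0.742 CPM (range 0 to 1607) and 3.99 CPM (range 0 to 1103). Without those dogs, 29 vessel-rich dogs were compared with 40 vessel-poor dogs, 1886 genes (14.1%) were higher and 1119 (8.34%) lower, no muscle gene was called, and 27 of 29 endothelial genes were. In these dogs 7 of 8 T and NK cell, 5 of 6 pan-leukocyte, 4 of 11 macrophage and 19 of 27 GS-1 genes were called higher. With trial, GS-1 score and muscle score as terms together, 1493 genes (11.1%) were higher and 1023 (7.62%) lower, and 27 endothelial, 11 pericyte and 11 basement membrane genes were called higher, each of them also called with trial alone as a term. In that fit PDLIM3, a muscle Z-disc protein, changed by 1.42 in place of 3.07 on the log2 scale, and DES, the muscle intermediate filament in the pericyte and smooth muscle list, was no longer called. The part of muscle RNA in the other results was not tested beyond these fits.

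Some genes of the connective tissue lists were higher, to be read against the 16.8% of all genes called higher. Of 11 fibroblast genes, 5 were higher, MFAP5, PI16, COL3A1, FBLN2 and CXCL12, and none was lower. COL3A1, the type III collagen of soft tissue and vessel walls, lay at 2963 CPM (range 2.84 to 26834) in vessel-poor and 10276 CPM (range 82.9 to 53779) in vessel-rich dogs. FABP4, a fatty acid binding protein of adipocytes and capillary endothelium, was 7.12-fold higher, 1 of 2 genes called among 4 adipocyte genes tested. The cartilage list did not rise in limma, with a median log2 fold change of 0.03. COMP, a matrix protein of cartilage and tendon, was the 1 of 11 cartilage genes called, while edgeR called 5 higher.

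**Figure D4:**
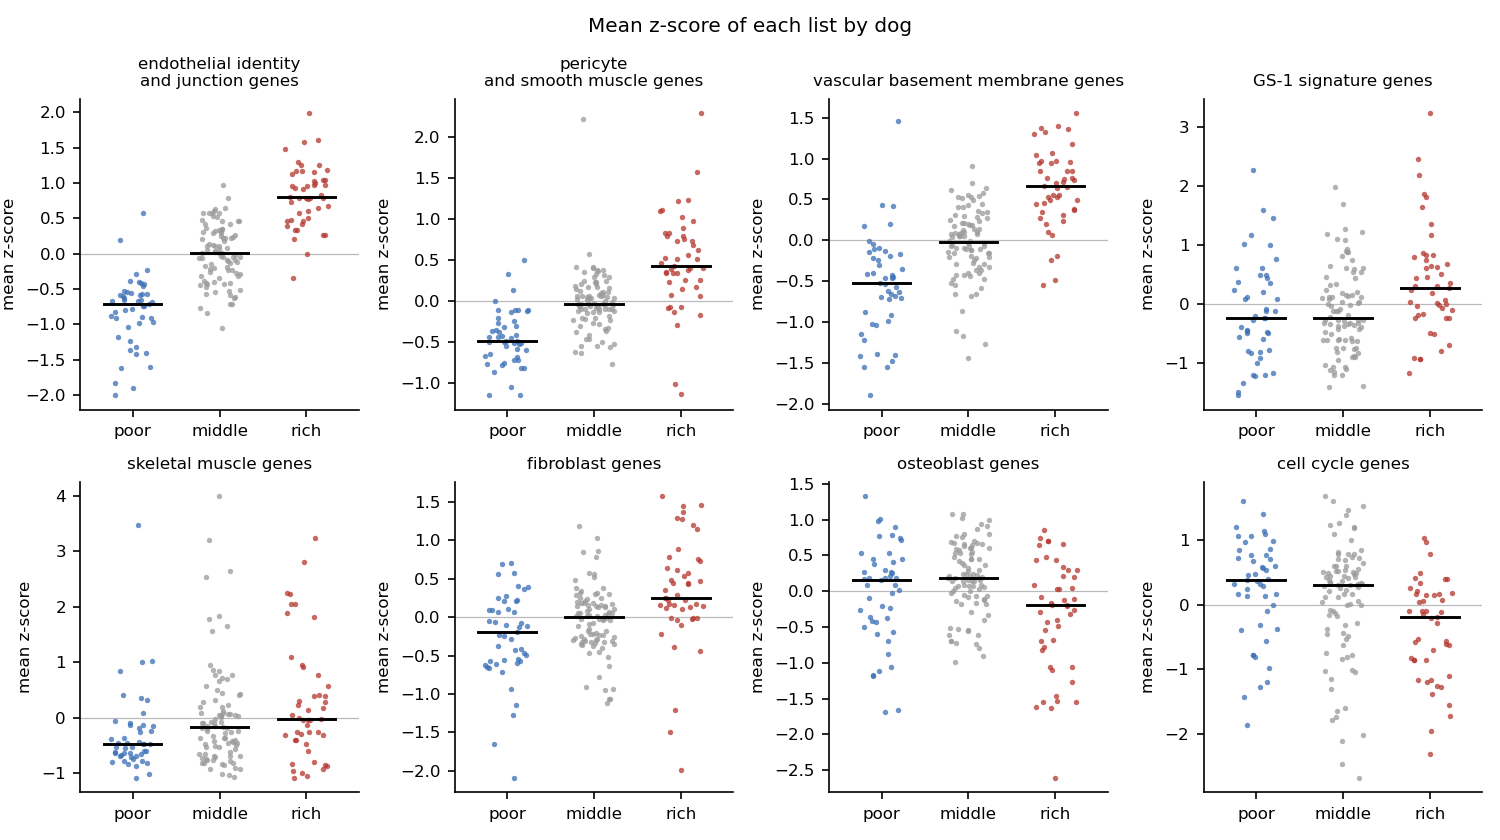
Mean z-score of log2(CPM + 1) over the tested genes of 8 lists in the 47 vessel-poor, 92 middle and 47 vessel-rich dogs, with 1 point per dog and the median as a black line. Endothelial medians rise from -0.714 to 0.803, skeletal muscle scores have a tail of high dogs in each group, and cell cycle medians run from 0.380 to -0.186.

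Osteoblast genes were lower in part. Of 12 tested, 4 were lower, RUNX2, SP7 and BGLAP among them, against 15.6% of all genes. None was higher, and the median log2 fold change was -0.94. The mean z-score of the list had medians of 0.164 in vessel-poor, 0.191 in middle and -0.197 in vessel-rich dogs. The summed level of the list went the other way, with medians of 44338, 49834 and 50882 CPM. SP7, the factor osterix that commits cells to bone, lay at 28.8 CPM (range 0.317 to 74.8) in vessel-poor and 14.5 CPM (range 0 to 54.2) in vessel-rich dogs, a 2.41-fold difference. COL1A1, the main collagen of bone, had medians of 18539 and 24121 CPM and did not pass the test (log2 fold change 0.51 ± 0.31, SE). None of the 4 was called among the GS-1-low dogs, where the list median was 0.06, and 1 of the 12 genes was called lower with trial, GS-1 and muscle terms. None of 8 osteoclast genes was called in either direction.

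Cell cycle genes were lower as a group. Of 18 tested, 15 were lower, against 15.6% of all genes, and none higher, at a median log2 fold change of -0.59. Of the vessel-rich dogs, 40 of 47 had a list score below the vessel-poor median. The score medians were 0.380 in vessel-poor, 0.306 in middle and -0.186 in vessel-rich dogs. CDC20 (chr15:16904979-16908696), the activator of the anaphase-promoting complex, lay at 93.2 CPM (range 12.2 to 220) in vessel-poor and 50.8 CPM (range 8.54 to 145) in vessel-rich dogs, a 1.74-fold difference (limma adjusted p = 0.000559). MCM2, of the replication helicase, lay at 117 CPM (range 23.7 to 381) and 61.6 CPM (range 20.9 to 160). The ranges overlapped for each gene of the list. MKI67, the proliferation antigen, was among the 3 genes not called, with a log2 fold change of -0.37 ± 0.18 (SE, adjusted p = 0.104). Among the GS-1-low dogs 4 of the 18 genes were called lower, and 10 with trial, GS-1 and muscle terms.

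Hypoxia and glycolysis genes moved less. Of 15 tested, SLC2A1, P4HA1, ALDOA and ENO1 were lower, against 15.6% of all genes, and none was higher. The median log2 fold change was -0.42, and edgeR's quasi-likelihood test called 8 lower, against 20.9% of all genes. Within COTC021 1 was called lower, within COTC022 2, and within the deeper and the other libraries 1 each. Among the GS-1-low dogs 2 were called lower, and 2 with trial, GS-1 and muscle terms. SLC2A1, the hypoxia-induced glucose transporter GLUT1, lay at 76.8 CPM (range 32.1 to 410) in vessel-poor and 48.1 CPM (range 11.5 to 154) in vessel-rich dogs, and 42 of 47 vessel-rich dogs were below the vessel-poor median.

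The 92 middle dogs, none of which is in the contrast of the outer groups, were used to see which genes followed the score among tumors of intermediate level. With the score as a continuous term, 102 genes (0.76%) rose and 2 (0.0149%) fell per unit of the score in limma, and 588 and 271 did so at an unadjusted p under 0.05. All 102 were among the genes called higher between the outer groups, 4.51% of that list. The score is the same 3 endothelial genes in both fits, so endothelial genes that follow it are again a check of the label. They include 16 of 29 endothelial identity genes, 3 endothelial transcription factors, KDR, FLT1, TEK, TIE1, COL4A1 and COL4A2. NOS3 had a slope of 1.02 on the log2 scale per unit of the score (adjusted p = 2e-05) and TEK a slope of 1.13 (adjusted p = 0.00162). CCL21 and SELE had slopes of 3.01 and 2.07 (adjusted p = 0.00764 and 0.035). The genes that fell were EGLN1, an oxygen-sensing prolyl hydroxylase, and SS18L2, named here after their values were seen.

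Of the 15 genes with the largest decreases, 8 had a positive slope in the middle dogs and none was called, while the 15 with the largest increases all had a positive slope and 3 were called. The cell cycle median was 0.01 per unit of the score and the osteoblast median 0.15, and with 2 genes called lower in all, calls in this fit say little of lists that fell. RGS5 had a slope of 0.71 (adjusted p = 0.787), and MCAM was the 1 pericyte gene called. Of genes called higher between the outer groups, 86.7% had a positive slope in the middle dogs, and of those called lower, 71.9% had a negative slope, against 52.7% and 47.3% of all genes tested. Both fits rest on the same 3 genes, so shared signs are not independent support. The middle dogs span a narrower range of the score than the outer groups.

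**Figure D5:**
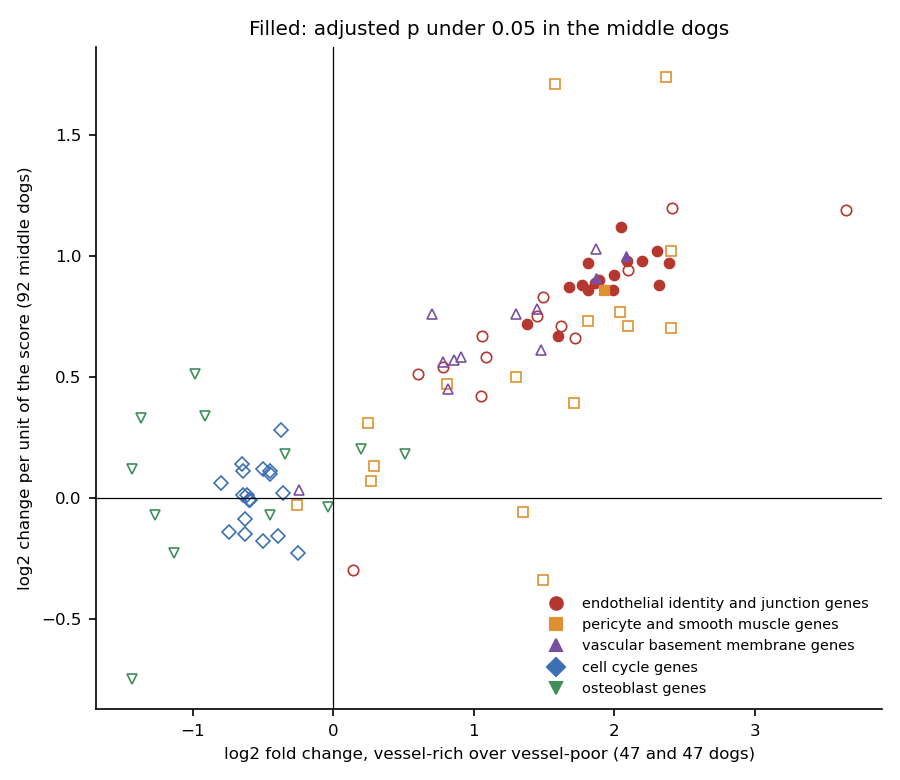
Each point is a gene of 5 lists, with its log2 fold change between the 47 vessel-rich and 47 vessel-poor dogs on the horizontal axis and its log2 change per unit of the score in the 92 middle dogs on the vertical axis. Filled points had an adjusted p under 0.05 in the middle dogs. Endothelial genes have a median of 0.87 on the vertical axis, and cell cycle genes one of 0.01.

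Within trials, 713 genes (5.31%) were higher and 236 (1.76%) lower among the dogs of COTC021, and 1545 (11.5%) and 1305 (9.73%) among those of COTC022. No gene was called for a different change between the trials (interaction in limma, 0 genes at an adjusted p under 0.05 and 851 at an unadjusted p under 0.05). The absence of calls does not show that the changes were equal. Endothelial identity genes were called higher for 27 of 29 in COTC021 and 26 in COTC022. Cell cycle genes were called lower for 1 of 18 in COTC021, where the median was -0.43, and 10 in COTC022, where it was -0.62. None of the 18 was called in the deeper libraries and 10 were lower in the others, at medians of -0.53 and -0.55. Of 12 osteoblast genes none was called in COTC021 and 4 were called lower in COTC022, with list medians of -0.60 and -1.19. In the deeper libraries none of them was called, and in the others none was lower and COL1A1 was higher (log2 fold change 0.99), with list medians of -1.56 and -0.44. Within the deeper libraries 478 genes (3.56%) were higher and 149 (1.11%) lower, within the others 1404 (10.5%) and 1278 (9.52%), and no interaction was called (0 genes in limma, 999 genes at an unadjusted p under 0.05). ECSCR had log2 fold changes of 2.31 in each trial, 2.33 in the deeper and 2.27 in the other libraries.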

How the data were processed

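Poly(A)-selected stranded mRNA libraries of 186 canine primary osteosarcomas were analysed. The authors aligned reads with STAR 2.7.0f and deposited expected counts per gene from RSEM 1.3.1 on the GSD_1.0 genome build, and 3.07% of the values were not whole. Of 198 columns, 12 matched no sample label and were not used. Expected counts were rounded to whole numbers for the count tests. Total counts per library are given with the groups, and intervals on shares cover counting error only.

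CPM was the count divided by the column total, times 1000000. Genes passing filterByExpr (minimum count 10, minimum proportion 0.5, large group 5) were kept, 13422 in all, and 13419 were tested after PECAM1, CDH5 and VWF were left out. The contrast was fitted with limma 3.58.1 (voom, TMM normalization, trial as a term) under R 4.3.3, with Benjamini-Hochberg adjustment over all genes tested and a threshold of 0.05. The edgeR 4.0.16 quasi-likelihood test and DESeq2 1.42.0 were alternatives, and the limma-voom fit alone was tested on simulated data. GS-1 clusters came from K-means (scikit-learn 1.9.0, 500 starts). Permutation tests used 100000 resamples and were two-sided. Replicates are dogs, each with 1 tumor.

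Genes named were the 15 largest changes in each direction among genes past the threshold with a symbol not starting with LOC and the same direction in both trials, and members of 27 lists, and the results of some of these genes are not reported here. The groups, lists and members were chosen with earlier results of these data known. Coordinates are those of the RefSeq table of the same build. Disease-free interval, overall survival and the cluster labels listed with the study were not analysed here. Alternatives covered the filter, the tool, the covariates, the score, trials, libraries and GS-1-low dogs.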

Additional observations from a re-analysis of the deposited data

How the results depend on the processing

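The count of genes higher in vessel-rich tumors was 2260 in the fit reported, and 713 within COTC021, 478 within the deeper libraries, 1404 within the other libraries, 1029 among GS-1-low dogs, 1493 with trial, GS-1 and muscle terms and 102 in the middle dogs. The count of lower genes was 2092, and 1199 with trial and GS-1 terms, 236 within COTC021, 1305 within COTC022, 149 within the deeper and 1278 within the other libraries, 260 among GS-1-low dogs, 1023 with trial, GS-1 and muscle terms, 1119 without the dogs highest for muscle and 2 in the middle dogs. Fits within a trial, within a set of libraries, among GS-1-low dogs and in the middle dogs used fewer dogs or a narrower range of the score by construction. The cause of the other changes was not tested. The fits with a muscle term, without the dogs highest for muscle and in the middle dogs were chosen after seeing the data.

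Genes past 3-fold numbered 348, and 556 with no low-count filter and 194 between the highest and lowest 62 dogs, which include dogs nearer the middle. The lower genes past 3-fold, 66 in the fit reported, numbered 128 with no low-count filter, 38 in edgeR, 33 within COTC021, 21 within the deeper libraries, 24 with trial and GS-1 terms, 28 with trial, GS-1 and muscle terms, 7 among GS-1-low dogs, 14 between the highest and lowest 62 dogs and 106 without the dogs highest for muscle. The GS-1 score difference of 0.466 was 0.260 within COTC021 and 0.337 within the other libraries and no longer passed. The difference in GS-1-high share of 19.1 percentage points passed at 23.4 with VWF left out of the score, at 23.4 with TMM-normalized GS-1 values and at 31.1 without the dogs highest for muscle. It did not pass at 17.0 with CDH5 left out of the score, at 8.51 with PECAM1 left out or at 11.3 between the highest and lowest 62 dogs. The cause was not tested.

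Of 2352 values of 112 named genes under the alternatives, 2027 kept their direction and their side of the threshold, 270 lost it, 24 gained it and 31 changed sign. In the middle dogs the slope had the opposite sign for ACTA2 (-0.34), BGLAP (0.12), CDC20 (0.06), COMP (-0.22), ESM1 (-0.30), FOXC1 (0.21), HOXB13 (1.18), LAMB2 (0.03), LEPR (0.25), MKI67 (0.28), MPO (0.59), NDNF (0.30), NRP2 (0.14), NXPH4 (0.78), SALL1 (0.17), SPAG6 (0.88) and ZIC5 (0.44), none of them called there. The log2 fold change of ANGPT1 was -0.01 in edgeR and -0.01 in DESeq2, and that of S100A9 was -0.54 in DESeq2. COL1A1 had -0.78 and NOTCH3 -0.09 within the deeper libraries, and NOTCH3 had -0.03 within COTC022. ESM1 had -0.01 with VWF left out of the score, -0.56 within COTC021, -0.21 within the other libraries and -0.01 with the score as a continuous term in all dogs. Among GS-1-low dogs RUNX2 had 0.02, VEGFA 0.06 and LEPR 0.09, and LEPR had 0.11 with VWF left out of the score.

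No paired analysis was possible because the replicate numbers of the dogs follow accession order and pair no samples. With 47 dogs a group no single dog was left out in turn. Whole-tumor RNA limits each statement to levels in the tissue piece, and genes under the low-count filter, such as ACKR1 and PROX1, were described without a test.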
